A study of Mus musculus with 10 samples.

Results

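The 33 genes described here are transcribed by macrophages and microglia, and they were measured by RNA sequencing of whole cochlea from 8-day-old mice. They were taken by symbol from a deposited table of 27179 Entrez gene IDs, and all 33 were present. All 33 also passed the filter on low counts, which kept 16018 genes. The list was sorted by role into 17 genes carried by most macrophages, the 3 chains of complement C1q, 8 genes of perivascular and tissue-resident macrophages, and 5 genes of microglia. The study compared 5 libraries labelled Pknox2-/- (knockout, KO) with 5 labelled Pknox2+/+ (wild type, WT), and the knockout label carries no tissue restriction. The sources used here name no strain or sex and do not say whether pups were pooled.

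Macrophages of the cochlea lie in the spiral ganglion, the spiral ligament and around the vessels of the stria vascularis. They depend on the receptor Csf1r and its ligands Csf1 and Il34, engulf debris through complement and Fc receptors, and signal through the adaptors Tyrobp and Fcer1g. Microglia are the resident macrophages of the brain and are marked there by P2ry12, Tmem119 and Cx3cr1. Perivascular macrophages are marked by the mannose receptor Mrc1, Lyve1 and the haemoglobin scavenger receptor Cd163. Osteoclasts, which resorb the bone around the cochlea, come from the same lineage and also carry Csf1r, Cd68, Tyrobp and Trem2. Osteoblasts also transcribe Tmem119.

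Library totals lay between 16.6 and 19.4 M counts. Pknox2 itself averaged 19.9 ± 1.96 CPM (counts relative to the TMM-scaled library total) in wild type and 21.1 ± 4.38 CPM in knockout (SD, n = 5 each), so its whole-gene count does not check the labels. The dissections held cochlear tissue, with 7 cochlear genes summing to 1632 to 1927 CPM in knockout and 2159.8 to 2608 CPM in wild type. Of these sums, Coch alone gave 741 to 985 CPM in knockout and 1198 to 1596 CPM in wild type. The median log2 fold change of the 7, knockout minus wild type, was -0.011, with 3 above 0 and 4 below (48.3% of all tested genes were above 0). Knockout libraries 2, 3 and 5 scored 41.2 to 73.5 on the first principal component of all tested genes, a component with 56.6% of the variance, while the remaining 7 libraries had scores of -42.3 to 2.77. Y-linked transcripts summed to 209 CPM in knockout 1 and to 0 to 11.3 CPM in the other knockouts, against 102 to 225 CPM in wild type, so sex moves with genotype in all knockouts but the first. In bulk tissue, fewer cells of a type and less RNA per cell cannot be told apart.

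Levels between genes were compared as mean wild-type CPM per kilobase of the longest annotated transcript. On this scale the order ran from Lyz2, the lysozyme of macrophages and neutrophils, at 206 to Cd163 at 0.348. Tmem119 was next after Lyz2 at 104, and then came Pf4, a chemokine of platelets and resident macrophages, at 98.4 and Tyrobp at 98.1. C1qa was at 68.7, Laptm5 at 51.6, Cd68 at 49.3 and Csf1r at 46.0 CPM per kilobase. The spread over libraries made neighbours such as Pf4 and Tyrobp, or Cd68 and Csf1r, indistinguishable in rank. The perivascular class was split, with Pf4 at 98.4, Mrc1 at 9.67 and Ms4a7 at 7.48 but Folr2, Lyve1, Timd4, Siglec1 and Cd163 at 1.66 or less.

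The microglial class was split as well. Tmem119 stood at 104 CPM per kilobase, while Trem2 was at 16.3, Cx3cr1 at 12.6, Fcrls at 11.99 and P2ry12, the ADP receptor of resting microglia, at 2.81. Within each library the Tmem119 CPM was 31.3 to 90.2 times that of P2ry12. Osteoblast genes were abundant in the same libraries, where 10 of them summed to 16247 to 25249.6 CPM. Col1a1, a collagen gene, alone gave 4594 to 8986 CPM of these sums. Whether osteoblasts supply the Tmem119 count was not tested, and the label microglial is used below for the list and not for a cell type.

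**Figure D1:**
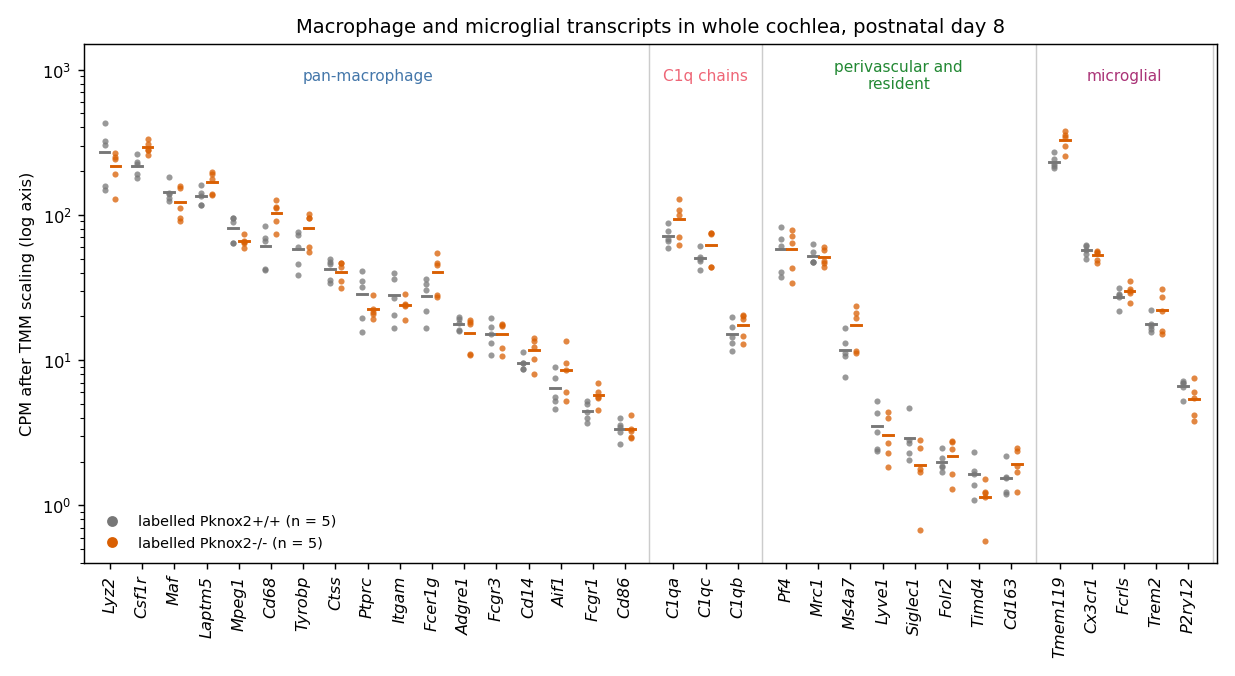
Level of each of the 33 genes in every library, as CPM after TMM scaling on a log axis, with grey points for the 5 wild-type and orange points for the 5 knockout libraries and a bar at each group mean. Lyz2, Csf1r, Tmem119 and Laptm5 lie above 100 CPM in every library, the 5 low perivascular genes lie below 6 CPM, and the groups overlap for every gene.

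None of the 33 genes was called between knockout and wild type by edgeR's quasi-likelihood test at an adjusted p under 0.05, where 0.0187% of all tested genes were called. The smallest adjusted p among them was 0.208, for Tmem119. At an unadjusted p under 0.05 there were 7 of 33 genes (21.2%), against 20.1% of all tested genes, so the share was near the background. Of these 7, 6 had higher means in knockout (background 11.4% of all tested genes) and 1 had a lower mean (background 8.66%). No gene had groups without overlap, against 2.37% of all tested genes (1.15% with every knockout above and 1.22% with every knockout below wild type). Fold changes were above 0 for 18 of 33 genes (54.5%), against 48.3% of all tested genes, and the median log2 fold change, knockout minus wild type, was 0.12 against -0.01. That median was 0.018 without knockout 5, and it turned to -0.032 with Y-linked expression as a covariate, -0.062 with the first component in the fit and -0.047 without knockout 2, 3 and 5.

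Other tests called more genes everywhere. DESeq2 called 3 of 33 genes, Tmem119, Csf1r and Cd68, with 2.11% called over all genes. Limma-voom with sample quality weights called 13 of 33 (39.4%), with 39.1% called over all genes. By class, the median log2 fold change in the edgeR fit was -0.0025 for the 17 pan-macrophage genes, 0.30 for the 3 C1q chains, -0.0051 for the 8 perivascular genes and 0.13 for the 5 microglial genes. The number above 0 was 8 of 17, 3 of 3, 4 of 8 and 3 of 5.

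Among the pan-macrophage receptors, Csf1r (Entrez 12978, chromosome 18, 61105572 to 61131139, GRCm38), the growth factor receptor that macrophages and osteoclasts need, was at 257, 280.3, 335, 279 and 308 CPM in knockout 1 to 5. In wild type 1 to 5 it was at 261, 229, 222, 190.2 and 179 CPM. Of the knockout libraries 4 lay above the highest wild type, and knockout 1 lay inside the wild-type range. The log2 fold change was 0.43 with an SE of 0.120 (edgeR adjusted p = 0.210). It was 0.31 without knockout 2, 3 and 5.

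Cd68 (Entrez 12514, chromosome 11, 69664213 to 69666170), a lysosomal membrane glycoprotein of phagocytes and osteoclasts, had the largest log2 fold change of the 33, at 0.77 with an SE of 0.209 (edgeR adjusted p = 0.210). Its level was 73.4, 113, 127, 91.0 and 112 CPM in knockout 1 to 5 and 83.9, 68.9, 66.4, 41.8 and 42.1 CPM in wild type 1 to 5. Again 4 knockout libraries lay above the highest wild type, while wild type 4 and 5 were the lowest of all 10. The log2 fold change was 0.44 without knockout 2, 3 and 5, which moves the value by more than 1.5 times.

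Laptm5, a lysosomal protein of blood-derived cells, was at 136, 175, 197, 139 and 189.5 CPM in knockout 1 to 5 and at 161, 135, 142, 117 and 117 CPM in wild type 1 to 5. Knockout 2, 3 and 5 lay above the wild-type range and knockout 1 and 4 inside it. Its log2 fold change was 0.32 with an SE of 0.134 (edgeR adjusted p = 0.236) and 0.04 without knockout 2, 3 and 5. The signalling adaptors Tyrobp and Fcer1g also had their highest levels in knockout 2, 3 and 5. Tyrobp was at 94.8 to 102 CPM in knockout 2, 3 and 5, at 55.2 and 59.8 CPM in knockout 1 and 4, and at 38.4 to 76.2 CPM in wild type. Within a library the ratio of Tyrobp to Fcer1g CPM stayed between 1.80 and 2.40.

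Csf1r, Cd68 and the adaptors are shared with osteoclasts, and osteoclast genes were set beside them. The 11 osteoclast genes summed to 4149, 6261, 7437, 4976 and 6797 CPM in knockout 1 to 5 and to 3816, 3981, 3789, 2909 and 2535 CPM in wild type 1 to 5. All 5 knockout sums lay above the highest wild-type sum, knockout 3 was highest for Csf1r, Cd68, Laptm5 and this sum alike, and wild type 4 and 5 were lowest for all of them. Unlike the sum, Csf1r and Cd68 lay inside the wild-type range in knockout 1. Tyrobp, Fcer1g and Laptm5 did so in knockout 1 and 4, and both adaptors were highest in knockout 2. No osteoclast gene on the list was called, and 10 of 11 had a log2 fold change above 0 (48.3% of all tested genes). At an unadjusted p under 0.05 by edgeR, 7 of 11 were higher in knockout, against 11.4% of all tested genes. Acp5, the tartrate-resistant acid phosphatase of osteoclasts, averaged 1024 ± 226 CPM in wild type and 2097 ± 656 CPM in knockout (SD, n = 5 each). None of the 11 was below 1 CPM in every library. The part of osteoclasts in the values of the shared genes was not tested.

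**Figure D2:**
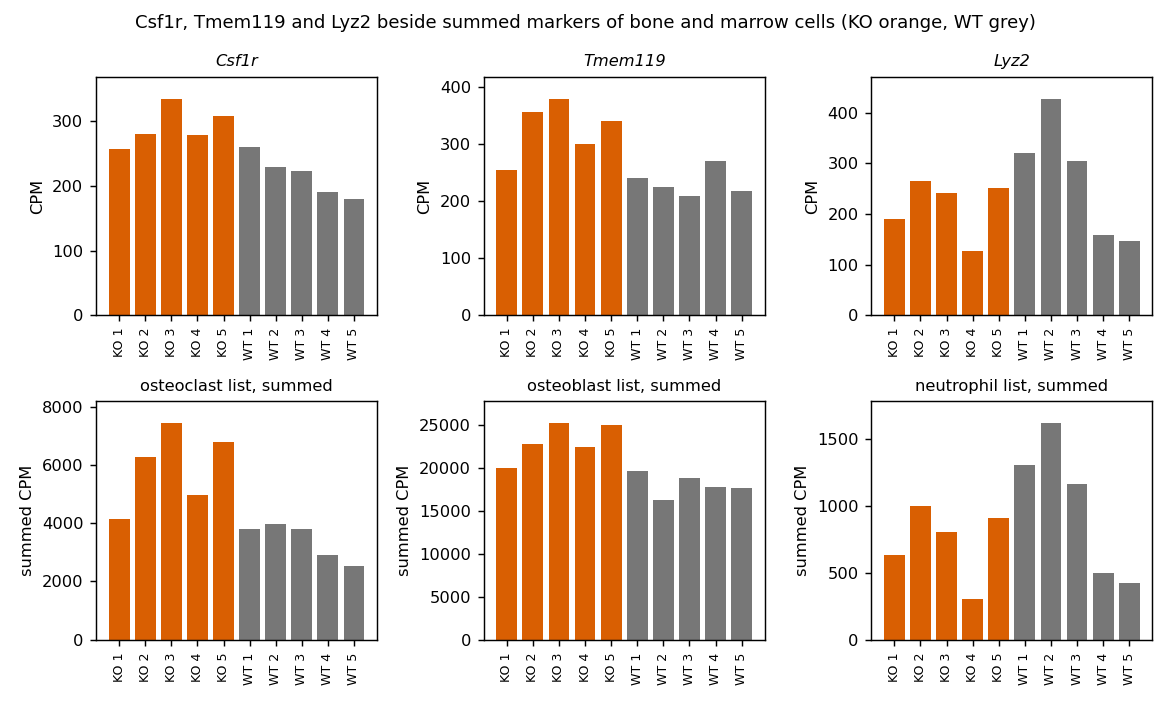
Bars give the level of Csf1r, Tmem119 and Lyz2 in each library (CPM, top) and the summed CPM of 11 osteoclast, 10 osteoblast and 10 neutrophil genes (bottom), knockout in orange and wild type in grey. The Csf1r and osteoclast panels both peak in knockout 3 and are lowest in wild type 5, and the Lyz2 and neutrophil panels are both highest in wild type 2 and lowest in knockout 4.

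Wild type 1 to 3 lay above wild type 4 and 5 for all pan-macrophage genes but Aif1 and Maf, so Csf1r, Cd68, Laptm5 and both adaptors shared this split. Relative to each gene's mean log2 CPM, the class median was 0.113, 0.166 and 0.057 in wild type 1 to 3. In wild type 4 and 5 it was -0.339 and -0.349. Lyz2, Mpeg1, Ptprc and Itgam had the split too, but no knockout lay above their highest wild type. Lyz2 was at 320.1, 428, 305, 158 and 147 CPM in wild type 1 to 5 and at 189.7, 266, 242, 128 and 251 CPM in knockout 1 to 5. Wild type 1 to 3 lay above all knockouts and wild type 4 and 5 below 4 of them. The log2 fold change was -0.34 with an SE of 0.293 (edgeR adjusted p = 0.470), and -0.77 without knockout 2, 3 and 5. It was -0.11 without wild type 2, -0.20 without knockout 4 and -0.12 by limma-voom. Lyz2 has a near-identical neighbour, Lyz1, so its count is uncertain.

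Mpeg1, a pore-forming protein of phagocytes, was at 89.2, 94.9, 95.05, 64.4 and 64.3 CPM in wild type 1 to 5. In knockout 1 to 5 it was at 74.3, 59.3, 65.6, 64.3 and 65.4 CPM, so the 5 knockouts were close to wild type 4 and 5 and below wild type 1 to 3. It was the only gene of the 33 with an unadjusted p under 0.05 and a lower mean in knockout, with a log2 fold change of -0.31 with an SE of 0.133 (edgeR adjusted p = 0.238). Ptprc, the leukocyte phosphatase CD45, was at 31.9, 40.8 and 35.1 CPM in wild type 1 to 3 and at 15.5 and 19.6 CPM in wild type 4 and 5, against 19.2 to 28.2 CPM in knockout. Itgam, the integrin CD11b of macrophages and neutrophils, ran from 16.7 CPM in wild type 4 to 40.0 CPM in wild type 3.

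The sums of neutrophil and B-cell genes were split the same way inside wild type, and the sum of monocyte genes was not. The 10 neutrophil genes summed to 1306, 1616 and 1161 CPM in wild type 1 to 3, to 496 and 424 CPM in wild type 4 and 5, and to 302 to 1000.3 CPM in knockout. The 9 B-cell genes summed to 279 to 394 CPM in wild type 1 to 3, to 156 and 163 CPM in wild type 4 and 5 and to 104 to 217 CPM in knockout. None of these genes was below 1 CPM in every library. The 6 monocyte genes summed to 878, 548, 787, 593 and 710.4 CPM in wild type 1 to 5, with wild type 2 the lowest, and to 607 to 936 CPM in knockout. Most of this sum came from the listed genes Fn1, Plac8 and F10. In wild type 1, with 878 CPM in all, Chil3 was at 49.9, Ly6c2 at 26.4 and Ccr2 at 10.4 CPM. The sum therefore says little of those 3 genes, and Chil3, Ly6c2 and Ccr2 were split like the neutrophil sum. Chil3 was at 40.7 to 71.4 CPM in wild type 1 to 3 and at 17.9 and 12.8 CPM in wild type 4 and 5. In the same order, Ly6c2 was at 21.4 to 27.1, 8.93 and 7.23 CPM and Ccr2 at 10.4 to 14.1, 5.52 and 7.29 CPM. Of the 6 genes, 3 had a log2 fold change above 0 and 3 below. Of 7 T-cell and natural killer genes, 4 were below 1 CPM in every library, and the sum was 7.23 to 17.6 CPM over all libraries. The part of marrow cells in Lyz2, Ptprc, Itgam and Mpeg1 was not tested.

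The other pan-macrophage genes were Aif1, Adgre1, Ctss, Cd14, Fcgr3, Fcgr1, Cd86 and Maf. Adgre1, which encodes the F4/80 antigen, averaged 17.8 ± 1.72 CPM in wild type and 15.3 ± 4.03 CPM in knockout (SD, n = 5 each), with knockout 2 and 5 at 10.8 and 11.0 CPM below the wild-type range. Fcgr1, the high-affinity receptor for immunoglobulin G, averaged 4.45 ± 0.651 and 5.73 ± 0.893 CPM, with 4 knockouts above the highest wild type. Fcgr3 averaged 15.05 CPM in wild type and 15.02 CPM in knockout, and it has close relatives among the Fc receptors with which it may share reads. The cathepsin gene Ctss and the costimulatory gene Cd86 had group means closer than 1 SD. Aif1, which encodes the macrophage stain Iba1, averaged 6.39 ± 1.83 CPM in wild type and 8.57 ± 3.30 CPM in knockout, and Cd14, a receptor for bacterial lipopolysaccharide, 9.53 ± 1.11 and 11.7 ± 2.54 CPM. The transcription factor gene Maf averaged 144 ± 22.0 and 122 ± 32.0 CPM in that order, with knockout 2, 3 and 5 below the wild-type range.

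The 3 chains of C1q, which starts the classical complement pathway and is made largely by macrophages, lie side by side on chromosome 4. They occupy 136895916 to 136898844 for C1qa, 136889801 to 136892936 for C1qc and 136880126 to 136886200 for C1qb (GRCm38). C1qa was at 61.6, 128, 100.1, 70.2 and 108 CPM in knockout 1 to 5 and at 65.5, 87.3, 67.9, 77.7 and 58.7 CPM in wild type 1 to 5. Knockout 2, 3 and 5 lay above the wild-type range and knockout 1 and 4 inside it. C1qc and C1qb had the same order of groups, at 62.1 ± 16.8 and 17.5 ± 3.43 CPM in knockout and 50.3 ± 6.90 and 15.2 ± 3.30 CPM in wild type (SD, n = 5 each).

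The log2 fold changes of the C1q chains were 0.39 for C1qa (SE 0.191, adjusted p = 0.261), 0.30 for C1qc (SE 0.180, adjusted p = 0.313) and 0.20 for C1qb (SE 0.180, adjusted p = 0.476) by edgeR. Their median turned from 0.30 to -0.13 without knockout 2, 3 and 5, a fit that keeps 2 knockouts. The ratio of C1qa to C1qc CPM within a library stayed between 1.34 and 1.73 over all 10 libraries, and that of C1qa to C1qb ran from 4.003 to 6.28, while C1qa itself ran from 58.7 to 128 CPM.

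Promoter windows were read for the start regions of these genes. The windows hold 250 bases before and 50 after the start, from RefSeq (GRCm38.p6), and 23 of the 33 genes matched one. The letters GAGGAA, the core of the site bound by PU.1, the product of the macrophage regulator gene Spi1, were searched on both strands. At least 1 match was found in 16 of 27 windows of these genes (59.3%), which belong to 15 of the 23 genes, and in 28.3% of all 32851 windows. C1qb and C1qc are shown for the complement cluster, Cd68 for its fold change and Cx3cr1 as a window chosen because it holds no match. Fcer1g, which was high in the same knockouts as C1qc, had 0 matches, and Mrc1, with group means closer than 1 SD, had 3. Capitals mark GAGGAA or its reverse complement, and each window runs 5′ to 3′ on the minus strand, at chr4:136886151-136886450 for C1qb, chr4:136892865-136893164 for C1qc, chr11:69666121-69666420 for Cd68 and chr9:120068247-120068546 for Cx3cr1.
C1qb: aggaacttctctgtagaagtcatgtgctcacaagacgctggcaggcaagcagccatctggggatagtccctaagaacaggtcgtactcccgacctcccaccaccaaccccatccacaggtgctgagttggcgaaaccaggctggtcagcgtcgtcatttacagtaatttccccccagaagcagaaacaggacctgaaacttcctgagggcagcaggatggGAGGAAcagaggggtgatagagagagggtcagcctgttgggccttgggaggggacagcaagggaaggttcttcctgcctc
C1qc: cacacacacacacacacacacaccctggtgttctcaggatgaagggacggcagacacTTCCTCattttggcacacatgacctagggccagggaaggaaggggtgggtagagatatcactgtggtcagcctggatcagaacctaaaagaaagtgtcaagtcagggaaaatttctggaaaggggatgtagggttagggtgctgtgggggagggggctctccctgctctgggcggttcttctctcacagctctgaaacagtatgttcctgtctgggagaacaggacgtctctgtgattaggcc
Cd68: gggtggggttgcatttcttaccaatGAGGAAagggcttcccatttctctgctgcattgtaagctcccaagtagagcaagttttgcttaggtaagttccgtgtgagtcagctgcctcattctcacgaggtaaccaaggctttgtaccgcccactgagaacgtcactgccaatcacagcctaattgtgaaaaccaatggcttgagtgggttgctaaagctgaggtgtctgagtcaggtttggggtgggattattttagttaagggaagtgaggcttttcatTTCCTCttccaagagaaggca
Cx3cr1: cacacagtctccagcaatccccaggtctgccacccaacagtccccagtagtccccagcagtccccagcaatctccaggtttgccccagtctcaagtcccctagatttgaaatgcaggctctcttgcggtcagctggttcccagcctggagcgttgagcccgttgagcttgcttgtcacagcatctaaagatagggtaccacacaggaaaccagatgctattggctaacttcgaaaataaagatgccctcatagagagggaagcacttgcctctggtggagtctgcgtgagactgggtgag
C1qb had 1 match, C1qc had 1, on the other strand, and Cd68 had 1 on each strand. A match is only a run of letters in this window, and none in Cx3cr1 says nothing of the factor.

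Among the perivascular genes, Mrc1 (Entrez 17533, chromosome 2, 14229414 to 14332023) barely differed between groups. It was at 56.9, 43.6, 46.9, 60.4 and 48.3 CPM in knockout 1 to 5 and at 63.2, 55.3, 47.2, 47.2 and 47.1 CPM in wild type 1 to 5, and the group means were 51.2 ± 7.12 and 52.0 ± 7.18 CPM (SD). Its count could include the microRNA gene Mir511, which lies inside it and had 0 counts in wild type. Pf4 was at 42.9, 78.7, 71.9, 34.1 and 64.1 CPM in knockout and at 61.4, 82.4, 67.9, 40.3 and 37.3 CPM in wild type, with a log2 fold change of 0.01 with an SE of 0.263 (edgeR adjusted p = 0.981). The ratio of Mrc1 to Pf4 CPM ran from 0.553 in knockout 2 to 1.77 in knockout 4.

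Ms4a7, a membrane protein of macrophages at tissue borders, was at 11.1, 23.7, 19.4, 11.6 and 20.9 CPM in knockout 1 to 5 and at 11.1, 16.5, 10.6, 13.03 and 7.63 CPM in wild type 1 to 5. Knockout 2, 3 and 5 were again the high ones. The log2 fold change of Ms4a7 was 0.56 with an SE of 0.251 (edgeR adjusted p = 0.244), and it turned to -0.05 without those libraries.

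The remaining perivascular genes had few counts. Siglec1, the sialoadhesin of resident macrophages, was at 2.83, 0.674, 1.77, 2.50 and 1.69 CPM in knockout and at 4.66, 2.31, 2.70, 2.05 and 2.83 CPM in wild type, from 11 to 78 counts a library. Timd4, a receptor for dying cells, was at 1.53, 1.23, 1.22, 0.567 and 1.14 CPM in knockout and at 1.37, 1.73, 2.34, 1.08 and 1.64 CPM in wild type, from 10 to 46 counts. Their log2 fold changes were -0.61 for Siglec1 (SE 0.344) and -0.53 for Timd4 (SE 0.293), and neither passed (adjusted p = 0.295 and 0.293, edgeR). Cd163 had 20 to 44 counts a library, averaged 1.55 ± 0.396 CPM in wild type and 1.93 ± 0.509 CPM in knockout, and had a log2 fold change of 0.31 (SE 0.256). Without knockout 2, 3 and 5 the log2 fold change was -0.12 for Siglec1, 0.49 for Cd163 and -0.64 for Timd4.

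Lyve1 and the folate receptor gene Folr2 averaged 3.51 ± 1.23 and 1.999 ± 0.314 CPM in wild type and 3.04 ± 1.102 and 2.17 ± 0.668 CPM in knockout (SD, n = 5 each). Lyve1 is also carried by lymphatic vessels. Of 6 lymphatic genes, Ccl21a was below 1 CPM in every library, and the list summed to 122 to 148 CPM in knockout and 126 to 167 CPM in wild type.

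Tmem119 (Entrez 231633, chromosome 5, 113793729 to 113800396) had the smallest p of the 33 genes. It was at 254, 357, 379, 299 and 341 CPM in knockout 1 to 5 and at 241, 224, 209, 269.8 and 218 CPM in wild type 1 to 5. All knockouts but knockout 1 lay above the highest wild type. Its log2 fold change was 0.49 with an SE of 0.123 (edgeR adjusted p = 0.208), and it was called without knockout 1, at 0.57 (adjusted p = 0.0440, edgeR), where 1.03% of all genes were called. Without knockout 2, 3 and 5 it was 0.25.

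Among knockouts, Trem2 and Fcrls were highest in knockout 2, 3 and 5, as Tmem119 was, but Cx3cr1 and P2ry12 were not. Cx3cr1, the fractalkine receptor, was at 55.4, 46.9, 49.2, 56.5 and 54.6 CPM in knockout 1 to 5 and at 61.5, 49.999, 61.1, 57.6 and 53.6 CPM in wild type 1 to 5. Its log2 fold change was -0.11 with an SE of 0.0955 (edgeR adjusted p = 0.458), the smallest standard error among the 33. P2ry12 was at 7.58, 5.45, 4.21, 6.01 and 3.79 CPM in knockout and at 6.98, 7.16, 6.57, 6.999 and 5.26 CPM in wild type, from 63 to 134 counts. The log2 fold change of P2ry12 was -0.28 with an SE of 0.198 (edgeR adjusted p = 0.374), and it lies within Med12l, which had 12.4 CPM in wild type, so reads of both genes could be mixed.

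Trem2, a lipid receptor that signals through Tyrobp, was at 15.7, 31.1, 21.9, 15.03 and 27.0 CPM in knockout and at 17.3, 22.1, 17.7, 16.3 and 15.5 CPM in wild type. Its log2 fold change of 0.32 with an SE of 0.202 (edgeR adjusted p = 0.340) turned to -0.21 without knockout 2, 3 and 5. Fcrls, an Fc receptor-like gene of mouse microglia, averaged 27.3 ± 3.48 CPM in wild type and 29.8 ± 3.72 CPM in knockout. The ratio of Tmem119 to Fcrls CPM was 10.2 to 12.3 in knockout and 7.20 to 9.64 in wild type, without overlap, but it was picked after its values were seen and was not tested.

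Tmem119 was set beside osteoblast and brain genes. The 10 osteoblast genes summed to 20041 to 25249.6 CPM in knockout and 16247 to 19703 CPM in wild type, and none was below 1 CPM in every library. All 5 knockout sums lay above the highest wild type, while Tmem119 in knockout 1 did not. Knockout 1 was the lowest knockout in both. In wild type the orders differed, with Tmem119 highest in wild type 4 and lowest in 3, and the sum highest in 1 and lowest in 2. All 10 had a log2 fold change above 0 (48.3% of all tested genes). At an unadjusted p under 0.05 by edgeR, 6 of 10 were higher in knockout (11.4% of all tested genes), and none was called. The 9 genes of central nervous tissue summed to 242 to 398 CPM in knockout and 245 to 327 CPM in wild type, and Pcp2 and Gabra6 were below 1 CPM in every library. Though these sums overlap, 5 of the 6 tested genes had a log2 fold change above 0 (48.3% of all tested genes), with a median of 0.43. At an unadjusted p under 0.05 by edgeR, 3 of the 6 were higher in knockout, against 11.4% of all tested genes, and none was called. Ttr, a choroid plexus gene, was at 82.6 CPM in knockout 2 and at 5.80 to 24.3 CPM in the others. The other choroid plexus genes did not all go the same way. Of the 5 listed, 2 had a log2 fold change above 0 and 3 below, with a median of -0.18. At an unadjusted p under 0.05 by edgeR, 1 was higher and 2 were lower in knockout (11.4% and 8.66% of all tested genes). The part of osteoblasts or of brain tissue in the microglial genes was not tested.

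Members with short transcripts had higher fold changes than those with long ones, as did all genes. Of the 15 members under 2 kb, 12 had a log2 fold change above 0 with a median of 0.30, and of the 18 longer ones 6 did with a median of -0.16. Among all tested genes, 78.8% of the short and 37.9% of the long ones were above 0, with medians of 0.25 and -0.09. Across the 33 genes Spearman's rho between length and log2 fold change was -0.52, and across 14987 tested genes with a length it was -0.52 too. Genes are not independent replicates, and all points share the same libraries.

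The length pattern lay in the libraries that stood apart. The median log2 deviation of the short members from their means over all libraries was 0.50, 0.37 and 0.43 in knockout 2, 3 and 5, -0.30 and -0.22 in knockout 1 and 4 and -0.44 to 0.19 in wild type. All tested short genes had 0.45, 0.25 and 0.26 in knockout 2, 3 and 5. The 6 long members above 0 were Tmem119, Csf1r, Laptm5, Fcgr1, Fcrls and Cd163. The part of transcript length in the fold changes was not tested.

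**Figure D3:**
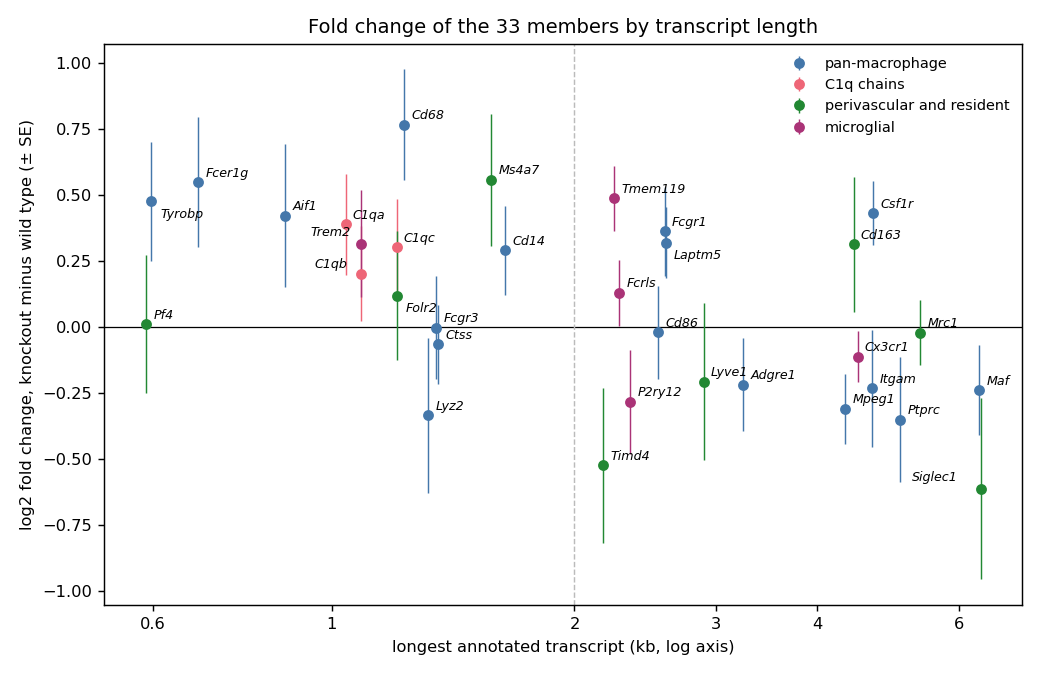
Log2 fold change (knockout minus wild type, bars are SE) of each of the 33 genes against the length of its longest transcript on a log axis, coloured by class, with a dashed line at 2 kb. Of the 15 genes left of the line 12 lie above 0, and of the 18 to its right 6 do.

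**Figure D4:**
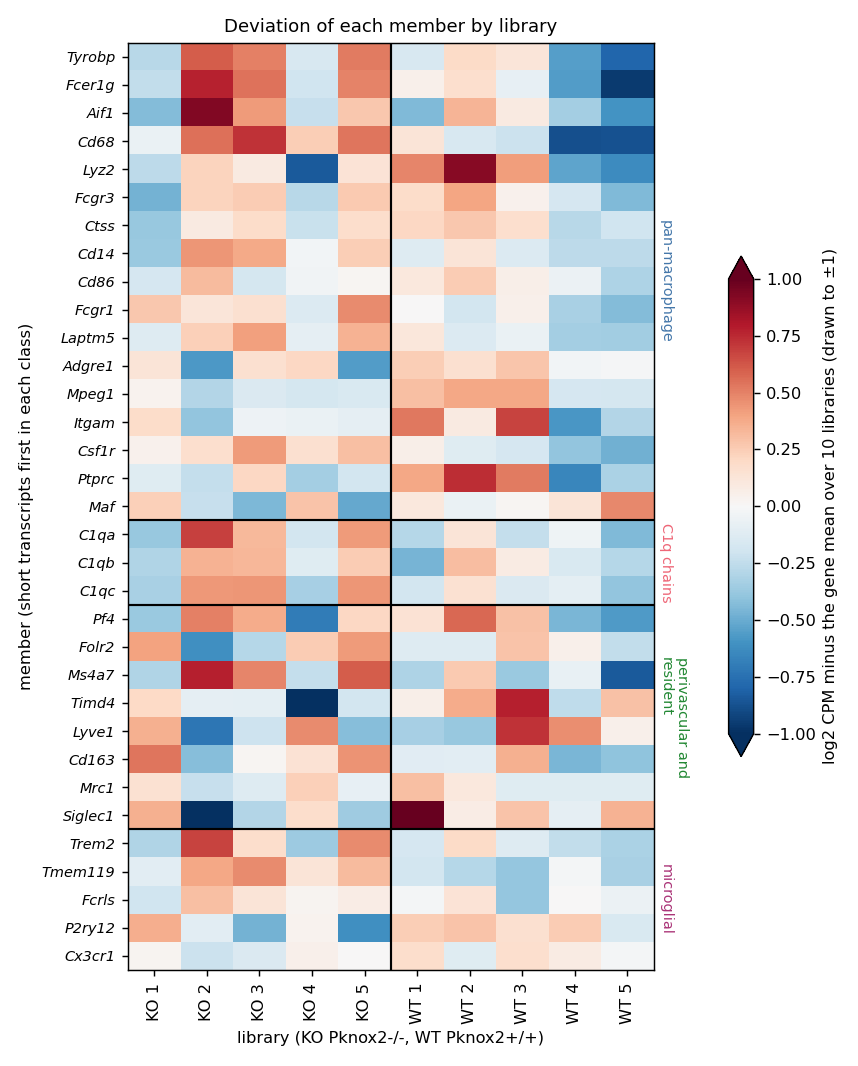
Log2 CPM of each gene minus its mean over the 10 libraries, red above and blue below, drawn to ±1, with genes ordered from short to long transcripts within each class. Knockout 2, 3 and 5 are red for Tyrobp, Fcer1g, C1q, Ms4a7 and Trem2, and wild type 1 to 3 are red for Lyz2, Itgam, Ptprc and Mpeg1.

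The ligands, regulators and effectors that act with these genes were counted from 10 lists of 106 genes, of which 97 were tested. None was called by edgeR with all libraries. An unadjusted p under 0.05 was found for 23 of 97 (23.7%, against 20.1% of all tested genes), and groups without overlap for 4 of 97 (4.12%, against 2.37%). DESeq2 called 5 of 94 with an adjusted p (5.32%, against 2.11%), namely Flt3, Csf1, Sirpa, Stab1 and Cd9, and limma-voom with quality weights called 30 of 97 (30.9%, against 39.1%). Without knockout 1 edgeR called Flt3 alone of the 97, at -0.93 on the log2 scale (adjusted p = 0.0498). Csf1, the ligand of Csf1r, was at 76.9, 67.5, 88.2, 91.6 and 79.5 CPM in knockout 1 to 5 and at 65.5, 58.1, 73.2, 55.4 and 55.3 CPM in wild type 1 to 5, with a log2 fold change of 0.39 with an SE of 0.114 (edgeR adjusted p = 0.210). Il34, the other ligand of that receptor, averaged 16.1 ± 1.29 CPM in knockout and 18.8 ± 2.22 CPM in wild type. Flt3, a receptor of blood progenitors, was at 2.39 to 4.31 CPM in knockout and 5.75 to 7.22 CPM in wild type, with a log2 fold change of -0.86 with an SE of 0.178 (edgeR adjusted p = 0.179), and in the growth factor list 4 genes lay above 0 and 4 below.

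Among regulators of the lineage, 7 lay above 0 and 7 below. Spi1, which encodes PU.1, was at 44.8, 70.3, 77.0, 48.8 and 64.4 CPM in knockout 1 to 5 and at 49.8, 54.8, 43.3, 33.8 and 30.1 CPM in wild type 1 to 5, the same high and low libraries as for Csf1r and Cd68 apart from knockout 4. Its log2 fold change was 0.53 with an SE of 0.194 (edgeR adjusted p = 0.223) and 0.15 without knockout 2, 3 and 5. Cebpb, a partner of PU.1 in myeloid cells, had 0.53 (SE 0.188) and 0.15 in the same fits. Signalling genes listed with the adaptors, activating and inhibitory ones together, lay below 0 for 11 of 12. The exception, Sirpa, an inhibitory receptor of macrophages and neurons, had 0.35 (SE 0.0878), with all 5 knockouts above all wild types. Syk, the kinase recruited by Tyrobp and Fcer1g, had -0.49 (SE 0.208). It was split inside wild type, at 73.7, 78.7 and 74.3 CPM in wild type 1 to 3 and 37.5 and 44.1 CPM in wild type 4 and 5. In knockout Syk was at 35.4 to 50.7 CPM.

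Of the complement genes beyond C1q, 7 of 12 lay above 0. Itgax, the integrin of complement receptor 4, had a log2 fold change of 0.59 (SE 0.196) and C2 had 0.26 (SE 0.111). Of the chemokine genes 4 of 9 lay above 0, with the smallest p for Cxcr4 at -0.53 (SE 0.177) and Ccr1, a receptor also found on osteoclasts, at 0.52 (SE 0.194). Other resident macrophage genes lay above 0 for 10 of 11, with Stab1, a scavenger receptor of macrophages and sinusoidal endothelium, at 0.35 (SE 0.0981) and all 5 knockouts above all wild types, and Pltp, a phospholipid transfer protein, at 0.16 (SE 0.0928). Other genes used as microglial markers lay above 0 for 6 of 8, with Olfml3 at 0.40 (SE 0.127).

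Antigen presentation genes lay above 0 for 5 of 9, with Ciita, the master regulator of class II genes, at -0.60 (SE 0.330) and Cd83 at 0.29 (SE 0.182). Other Fc receptor genes lay above 0 for 1 of 3, Fcgrt, at 0.44 (SE 0.203), and Fcgr2b had -0.30 (SE 0.178). Genes of the damage response of microglia lay above 0 for 8 of 13, with Cd9, a tetraspanin of many cell types, at -0.25 (SE 0.0908). Without knockout 2, 3 and 5 the log2 fold change was 0.10 for C2, 0.22 for Sirpa, 0.19 for Stab1, 0.17 for Olfml3 and -0.12 for Fcgrt. By edgeR with all libraries no gene of these lists passed, and over all tested genes 48.3% lay above 0.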

How the data were processed

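RNA from whole cochlea was sequenced in 5 knockout and 5 wild-type libraries. Whether pups were pooled is not stated, so p-values measure the spread between these libraries. The deposited values are raw read counts per Entrez gene ID. Per the submitters' processing notes, the tools were HISAT2, featureCounts and limma and the build was mm10, with no version or step assigned to any. For the annotation and strand setting, nothing is stated (not given in the sources used here), so reads of overlapping genes cannot be told apart. Totals were 16.6 to 19.4 M counts, and IDs without a symbol took 0.473% to 1.24%.

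Symbols and positions came from RefSeq (GRCm38.p6), which matched 25275 IDs, and transcript lengths from GENCODE M21. Counts were tested with edgeR 4.0.16 (R 4.3.3), by the quasi-likelihood test with TMM scaling, filterByExpr (minimum count 10, minimum total 15) and Benjamini-Hochberg adjustment over 16018 genes. The fit was tested on simulated data. The SE was taken from the fold change and its F statistic. Log2 CPM used a prior count of 2.

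The members and lists were chosen with earlier results of these data known, so lists carry counts and medians and no test. By rule, each class is shown by its 4 members with the smallest p and the one highest per kilobase, and each pathway list by up to 2 genes with the smallest p, 1 of which is not reported here. Genes named beyond that rule, such as Tyrobp, Mrc1, Adgre1, Il34 and Acp5, were chosen after their values were seen. Alternatives were RLE scaling, no filter, DESeq2 1.42.0, limma-voom (limma 3.58.1) with quality weights, a block for the replicate number, Y-linked expression as a covariate, each library left out, and, chosen after seeing the data, the first principal component as a covariate and a fit without knockout 2, 3 and 5.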

Additional observations from a re-analysis of the deposited data

How the results depend on the processing

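RLE scaling and no filter on low counts changed no call and no direction among the named genes or class medians beyond the spread between libraries. The number of called genes among all tested, 3 in the edgeR fit, was 1 with the replicate block, 0 with Y-linked expression as a covariate, 1 with the first component as a covariate, 1 without knockout 2, 3 and 5, 331 with DESeq2, 6259 with limma-voom, and between 1 and 166 on leaving out 1 library, with 166 without knockout 1. Called members were 0 in the edgeR fit, 3 with DESeq2, 13 with limma-voom and from 0 to 1 when single libraries were left out, where fits other than that without knockout 1 called 0.0062% to 0.0124% of all genes. With the first component as a covariate 11 members lay above 0, against 18.

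Median log2 fold changes moved for C1q to -0.10 with Y-linked expression, -0.15 with the first component and -0.13 without knockout 2, 3 and 5, and for the microglial class to -0.045, -0.059 and -0.020. With Y-linked expression the log2 fold change turned for C1qa (-0.13), C1qc (-0.058), C1qb (-0.10), Siglec1 (0.0012), Pf4 (-0.28), Trem2 (-0.18), P2ry12 (0.10), Fcgrt (-0.11) and Cd83 (-0.019). With the first component it turned for C1qa (-0.13), C1qc (-0.16), C1qb (-0.15), Ms4a7 (-0.069), Pf4 (-0.57), Trem2 (-0.20), Fcgrt (-0.11) and Cd83 (-0.023). Without knockout 2, 3 and 5 it turned for C1qa (-0.12), C1qc (-0.20), C1qb (-0.13), Ms4a7 (-0.047), Pf4 (-0.59), Trem2 (-0.21), P2ry12 (0.046) and Fcgrt (-0.12). Pf4 ran from -0.12 to 0.17 when single libraries were left out. The cause was not tested in any of these cases. Replicate numbers are not said to pair libraries, same-numbered deviations correlated between -0.38 and 0.51, and 1 of 5 knockouts correlated best with its own number. Timd4, Siglec1, Cd163 and Folr2 had 10 to 78 counts a library, which limits their precision.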
